A study of Mus musculus with 6 samples.

Results

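The collagen chain genes were the genes whose symbol is Col followed by the type number, the letter a and the chain number, provided that the 6 retinas together held 10 or more counts. There were 44 of them among the 32285 genes of the count table, and all 44 passed the minimum, as did 20021 genes in all. By structure they fell into 3 short-chain, 6 basement membrane, 11 fibrillar, 9 FACIT (fibril-associated), 6 beaded filament, 2 multiplexin and 4 transmembrane collagen genes and 3 others. Retinal RNA was compared between OIR-CIH and OIR-Norm mice at postnatal day 18 (PN18), with 3 retinas in each group, to ask what chronic intermittent hypoxia (CIH) changes in a retina that is regrowing its vessels after oxygen-induced retinopathy (OIR). All pups were wild-type C57BL/6J mice that had been kept with their mothers at 75% O2 from PN8 to PN13, so that OIR is shared by both groups. OIR-CIH pups then had 10 h of CIH daily, as 266 cycles of 135 s that reached 5% O2, and OIR-Norm pups had the same gas flow with O2 held at 20.95%. Both groups therefore carry the OIR lesion, and no retina without OIR is compared here. Xist and Y-linked RNA were present in all 6 libraries, so that n counts libraries, how many animals contributed to one is unknown, and every p-value measures the spread between libraries. The word retina below stands for a library.

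Every collagen is a triple helix of 3 chains, which can be alike or come from different genes. The type of collagen is set by which chains assemble. Fibrillar collagens form the banded fibrils of vitreous, sclera and vessel walls, type IV chains form the meshwork of basement membranes such as those of retinal capillaries, and the short-chain type VIII collagen forms hexagonal lattices, best known from Descemet's membrane of the cornea and also found in Bruch's membrane and in vessel walls. FACIT collagens decorate fibrils, and beaded filament (type VI), multiplexin and transmembrane collagens sit at cell surfaces and around basement membranes. In a whole-retina library, fewer cells of a type and less RNA per cell cannot be told apart.

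Sequences upstream of the type VIII genes are shown because the largest difference among the collagens lay in Col8a2, and those at the shared starts of type IV genes because these genes lie head to head. Col8a1 lies on chromosome 16, minus strand, at chr16:57624258-57754737, and Col8a2 on chromosome 4, plus strand, at chr4:126286793-126314330 (GRCm38, GENCODE M21). The 250 bases before the RefSeq start (GRCm38.p6) are chr16:57754738-57754987 for Col8a1 and chr4:126286544-126286793 for Col8a2, each written 5′ to 3′ on the strand of its gene, with capitals marking GGGCGG, the GC box, or its reverse complement CCGCCC. The last base of the Col8a2 window is the first base of its GENCODE gene.
Col8a1: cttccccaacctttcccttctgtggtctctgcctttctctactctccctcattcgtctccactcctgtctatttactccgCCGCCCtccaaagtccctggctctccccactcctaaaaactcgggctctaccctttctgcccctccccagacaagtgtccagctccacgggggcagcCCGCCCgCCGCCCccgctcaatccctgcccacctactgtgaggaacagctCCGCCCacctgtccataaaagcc
Col8a2: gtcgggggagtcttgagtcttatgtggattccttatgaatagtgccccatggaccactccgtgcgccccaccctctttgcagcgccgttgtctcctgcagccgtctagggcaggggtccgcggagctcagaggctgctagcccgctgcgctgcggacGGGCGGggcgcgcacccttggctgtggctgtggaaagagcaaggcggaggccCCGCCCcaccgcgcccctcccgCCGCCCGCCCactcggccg
Each window held 4 matches to GGGCGG on either strand, with a pair in Col8a2 that overlap each other, and GC made up 60.8% of the Col8a1 window and 70% of the Col8a2 window. Col4a1 and Col4a2 start on opposite strands of chromosome 8, and 22 bases at chr8:11312805-11312826 belong to the first exons of both, written on the plus strand with the same capitals. Col4a3 and Col4a4 start on opposite strands of chromosome 1, with 71 bases between their starts at chr1:82586850-82586920 (the Col4a4 start from RefSeq, the Col4a3 start from GENCODE), written on the plus strand.
Col4a1/Col4a2: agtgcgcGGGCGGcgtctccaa
Col4a3/Col4a4: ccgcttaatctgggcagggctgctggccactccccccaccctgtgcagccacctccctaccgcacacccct
GGGCGG occurs once in the stretch shared by Col4a1 and Col4a2 and not in that between Col4a3 and Col4a4. Over the 35 collagen genes with a RefSeq promoter, 21 held GGGCGG on either strand in the 250 bases before a start, against 32.7% of 32851 mouse promoters. Here and below, a collagen gene was counted if any of its windows (38 in all) held the motif. The share over all promoters is per window. The collagen windows were also richer in GC, with a median of 59% against 52.4%. CCAAT was in 13 of the 35 genes against 33.8% of all promoters, TATAAA in 5 against 12.4%, and ACGTG in 5 against 16.6%. ACGTG is a form of the core of the hypoxia response element, and its other form, GCGTG, was not searched. These counts describe letters in the windows.

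Collagen RNA spanned a wide range of levels in these retinas. Scaled to library size, mean CPM (counts scaled to a common library total after TMM adjustment of each total) ran from 0.574 for Col14a1 to 317 for Col9a1. Per length, in CPM per kb of exon, Col9a1, a chain of the vitreous FACIT collagen IX, was the most abundant collagen with 62.6, followed by the transmembrane Col23a1 with 33.4, the multiplexin Col18a1 with 33.2, Col6a1 with 28.0 and the vitreous fibrillar Col2a1 with 22.5. Col14a1 was the lowest on this scale too, with 0.0819. Retinal marker genes were abundant in all libraries, with Rcvrn, the photoreceptor calcium sensor recoverin, at a mean of 2082 CPM in OIR-CIH and 1782 CPM in OIR-Norm. The total count per library was between 26289905 and 38010151, and the totals of the groups overlapped. Xist was at 994, 1092 and 724 CPM in OIR-CIH and at 298, 1653 and 777 CPM in OIR-Norm. Y-linked Ddx3y was at 21.2, 39.1 and 36.0 CPM in OIR-CIH and at 61.1, 25.3 and 65.0 CPM in OIR-Norm. The part of these differences in the collagen values was not tested.

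Between the groups, Col8a2 rose in OIR-CIH and no collagen gene fell under edgeR's quasi-likelihood test, with calls made at a Benjamini-Hochberg adjusted p below 0.05 where the log2 fold change also lay above 0.5 or below -0.5. Of the 44 genes, 1 was thus called higher and 0 lower, beside 0.105% of all 20021 genes called higher and 0.21% called lower. DESeq2 called 2 collagen genes lower, Col1a2 and Col4a6 (0.504% of all genes were called lower by it), and Col8a2 again as the 1 higher (0.17% of all genes). An unadjusted p under 0.05 was reached by 3 collagen genes that were higher and 11 that were lower, against 6.3% and 7.1% of all genes. The libraries of the groups did not overlap in 3 genes that were higher in OIR-CIH (Col8a1, Col8a2 and Col4a3), against 9.12% of all genes. The same held for 6 genes that were lower (Col4a5, Col11a1, Col19a1, Col9a1, Col9a2 and Col25a1), against 9.26% of all genes. In either direction this was 20.5% of the 44 collagen genes against 18.4% of all genes, which is near the background. The log2 fold change was above 0 in 18 of 44 collagen genes, against 49.1% of all genes, and its median was -0.11, against -0.01 over all genes. By class the median was 0.60 for short-chain, -0.38 for basement membrane, -0.29 for fibrillar, -0.14 for FACIT, 0.07 for beaded filament, -0.07 for multiplexin, -0.02 for transmembrane and -0.16 for the other collagens. Leaving out single libraries kept the sign of the short-chain, fibrillar and FACIT medians and changed that of the others.

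**Figure D1:**
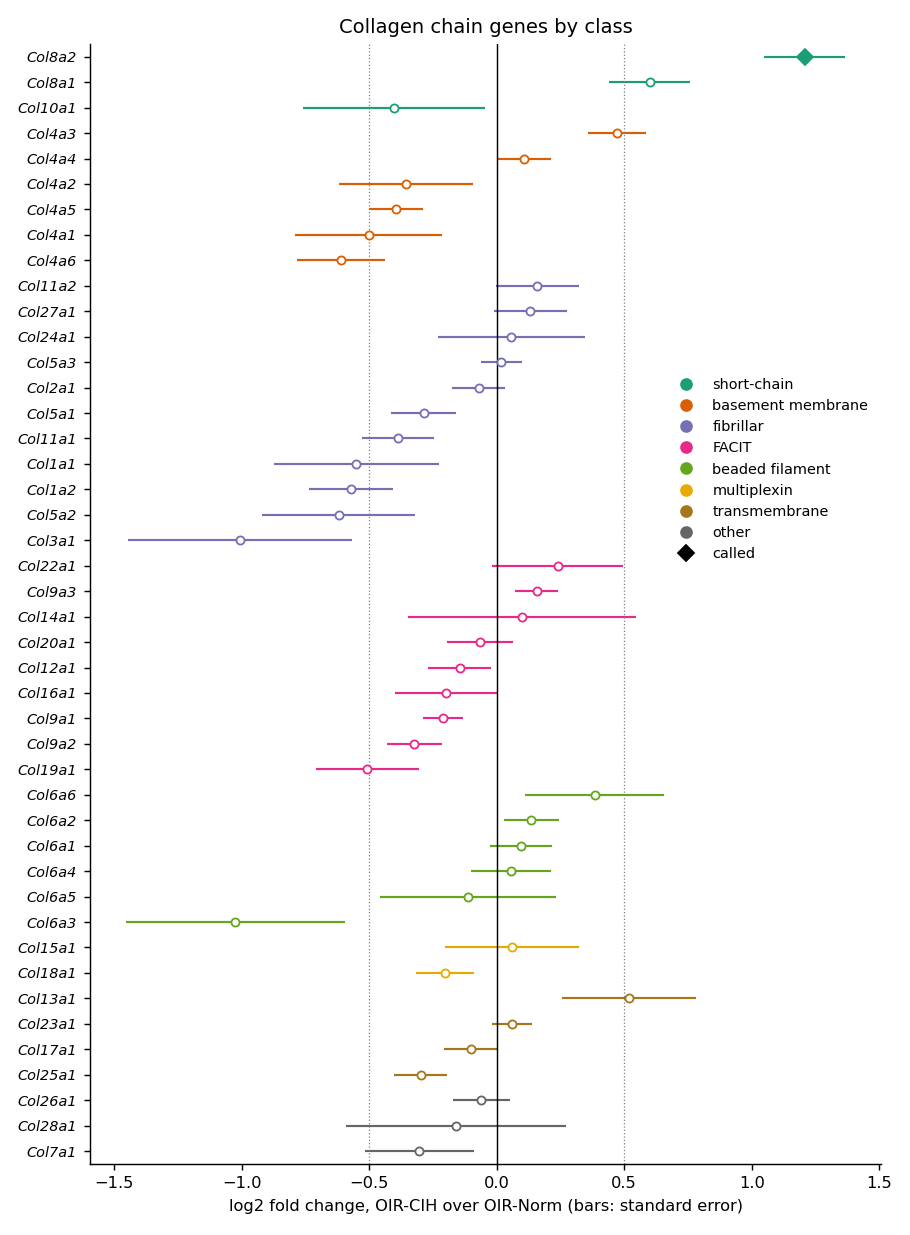
Log2 fold change of each of the 44 collagen chain genes, OIR-CIH over OIR-Norm (x axis), grouped by class in colour; points are edgeR estimates, bars are 1 standard error and dotted lines mark 0.5 in either direction. The filled diamond, Col8a2 at 1.21, is the 1 gene called; Col3a1 and Col6a3 lie lowest, near -1, with wide bars.

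Type VIII collagen is built from the chains encoded by Col8a1 and Col8a2. Col8a2 (ENSMUSG00000056174), whose mutation in people causes a corneal endothelial dystrophy, was measured at 40.1, 29.3 and 31.3 CPM in OIR-CIH and at 18.5, 12.8 and 12.1 CPM in OIR-Norm. The lowest OIR-CIH retina lay well above the highest OIR-Norm retina. Means were 33.5 ± 5.74 and 14.5 ± 3.50 CPM (SD, n = 3 each), a 2.31-fold rise with a log2 fold change of 1.21 (SE 0.16) and an edgeR adjusted p of 0.00575, the 20th lowest p among 20021 genes. An exact permutation test of 3 against 3 retinas gave a two-sided p of 0.1, the smallest it can give. Col8a2 was called under all 13 alternative settings, and without any 1 library its log2 fold change stayed between 1.06 and 1.42, with edgeR adjusted p from 0.000912 to 0.0413.

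Its partner chain Col8a1 (ENSMUSG00000068196) lay at 83.4, 54.8 and 55.6 CPM in OIR-CIH and at 51.2, 37.7 and 38.7 CPM in OIR-Norm. These groups did not overlap either, although the gap between them was narrow. The log2 fold change of Col8a1 was 0.60 (SE 0.16), 1.52-fold, with an edgeR adjusted p of 0.185, and the gene was not called. With the replicate number as a block it passed, at an edgeR adjusted p of 0.0218. That fit called 0.145% of all genes higher and 0.195% lower. The labels do not say whether same-numbered retinas belong together, and such retinas were not taken as pairs. The count of Col8a1 for each count of Col8a2 was 2.08, 1.87 and 1.78 in OIR-CIH and 2.77, 2.95 and 3.19 in OIR-Norm, so that the share of Col8a2 was larger in each OIR-CIH retina. Per length, Col8a2 was at 7.47 CPM per kb in OIR-CIH and 3.22 in OIR-Norm, and Col8a1 at 8.25 and 5.43. The upstream windows of these genes, printed above, are those with 4 GC boxes each.

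Col10a1, the short-chain collagen of hypertrophic cartilage, was low, with 141 counts over all 6 libraries together. It was at 0.432, 0.867 and 0.662 CPM in OIR-CIH and at 1.10, 0.561 and 0.942 CPM in OIR-Norm, with overlapping groups, a log2 fold change of -0.40 (SE 0.36) and an edgeR adjusted p of 0.662. Short-chain collagens together made up 5.13% of all collagen CPM in OIR-CIH and 2.85% in OIR-Norm on average.

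Some genes of the retinal pigment epithelium, which lies against the retina and can come away with it, ran beside type VIII collagen. Rpe65, the isomerase of the visual cycle, was at 61.4, 42.2 and 33.9 CPM in OIR-CIH and at 38.9, 25.1 and 23.0 CPM in OIR-Norm. Ttr, the thyroxine and retinol carrier transthyretin, was at 216, 156 and 147 CPM against 134, 86.3 and 88.6 CPM, with groups that did not overlap. The first library of each group was the highest in its group for Rpe65 and Ttr, as it was for Col8a1 and Col8a2. The log2 fold changes were 0.65 for Rpe65 and 0.75 for Ttr, with edgeR adjusted p of 0.267 and 0.127. The lactate transporter Slc16a8 (0.62) and the retinol dehydrogenase Rdh5 (0.51) lay above 0 as well, while the pigment genes Tyr (-0.04), Tyrp1 (-0.40) and Pmel (-0.78) and the channel gene Best1 (-0.19) lay below it. Slc16a8 was at 22.8, 18.3 and 17.8 CPM against 17.4, 9.23 and 11.5 CPM, also without overlap, with an edgeR adjusted p of 0.231 and a DESeq2 adjusted p of 0.0365. Of the 8 pigment epithelium markers, 4 were thus above 0 and 4 below, with 0 called by edgeR and 1 (Slc16a8) called higher by DESeq2, and the summed list ranged from 282 to 409 CPM in OIR-CIH and from 186 to 366 CPM in OIR-Norm. Its part in the type VIII result was not tested. Corneal markers were near 0, with Kera under 10 counts in all, Krt12 at a mean of 0.125 and 0.146 CPM and Aldh3a1 at 0.263 and 0.335 CPM in OIR-CIH and OIR-Norm. None of these genes is a marker of the corneal endothelium, so that they do not speak to that layer.

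**Figure D2:**
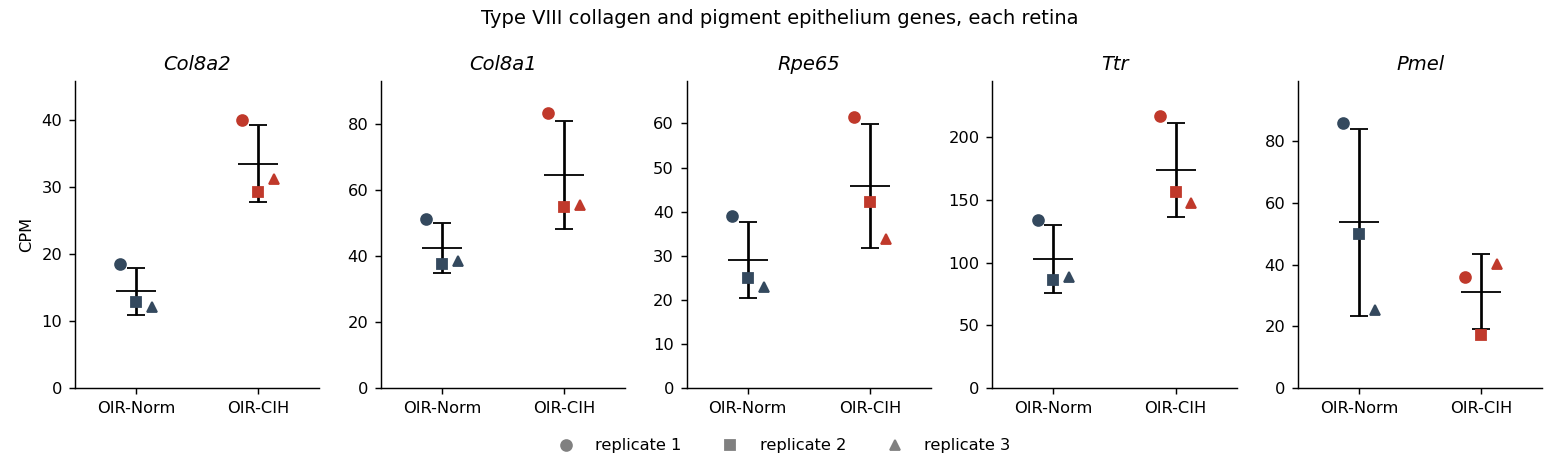
CPM (y axis, from 0) of Col8a2, Col8a1 and 3 pigment epithelium markers in each retina of OIR-Norm and OIR-CIH (x axis); symbols are libraries, the long horizontal line is the mean and bars are 1 SD (n = 3). The groups are apart for Col8a2, Col8a1 and Ttr, and overlap for Rpe65 and Pmel.

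Among basement membrane collagens, no type IV gene was called by edgeR, and DESeq2 called 1, Col4a6, lower. Col4a1 and Col4a2, whose chains build the basement membrane of most vessels, were the most abundant of them. Col4a1 was at 92.3, 107 and 130 CPM in OIR-CIH and at 127, 255 and 85.4 CPM in OIR-Norm. OIR-Norm 2 was the highest and OIR-Norm 3 the lowest of all 6 retinas, so that the OIR-Norm values enclosed those of OIR-CIH. Col4a2 had the same shape, with 69.0, 71.8 and 85.4 CPM against 81.9, 153 and 55.0 CPM. The log2 fold changes were -0.50 (SE 0.29) for Col4a1 and -0.35 (SE 0.26) for Col4a2, with edgeR adjusted p of 0.478 and 0.593. Without the second OIR-Norm retina these became 0.05 and 0.14, so that the direction rested on that library. There were 1.34 to 1.52 counts of Col4a1 for each of Col4a2 in OIR-CIH and 1.55 to 1.67 in OIR-Norm, with no overlap but a narrow gap.

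Col4a3 and Col4a4, which join the chain of Col4a5 in the specialised network that is lost in Alport syndrome, were the type IV genes above 0. Col4a3 was at 32.7, 30.1 and 30.0 CPM in OIR-CIH and at 26.3, 18.7 and 21.8 CPM in OIR-Norm. All OIR-CIH values lay above all OIR-Norm values. This gave a log2 fold change of 0.47 (SE 0.11) and an edgeR adjusted p of 0.151. DESeq2 gave Col4a3 an adjusted p of 0.0162 at 0.47, short of the fold minimum, and among the 13 alternatives the gene was called only without the first OIR-Norm retina, at 0.60 with an edgeR adjusted p of 0.0373 (0.157% of all genes were called higher in that fit). Col4a4, whose start lies across the 71 bases printed above, was at 28.1, 26.1 and 25.96 CPM against 28.9, 22.3 and 23.2 CPM, with overlapping groups, a log2 fold change of 0.11 (SE 0.11) and an edgeR adjusted p of 0.702. The number of Col4a3 counts for each Col4a4 count was 1.16 ± 0.00492 in OIR-CIH and 0.895 ± 0.0502 in OIR-Norm (SD, n = 3 each), with no overlap. Exons of Col4a3 overlap those of C430014B12Rik on the other strand by 563 bases, and this gene had a mean of 0.272 CPM in OIR-CIH and 0.109 CPM in OIR-Norm. Which strand was counted is not stated in the sources used here.

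Col4a5 and Col4a6, head to head on chromosome X with 1308 bases between their starts, lay below 0. The libraries differed in Xist and Y-linked RNA, as given above, and the part of this in these X-linked genes was not tested. Col4a5 was at 41.1, 36.9 and 43.9 CPM in OIR-CIH and at 56.1, 59.0 and 45.3 CPM in OIR-Norm. The groups did not overlap, by a margin set by OIR-CIH 3 and OIR-Norm 3. This came to a log2 fold change of -0.40 (SE 0.11) and an edgeR adjusted p of 0.186, while DESeq2 gave an adjusted p of 0.0367 at -0.40, short of the fold minimum. Col4a6 was at 12.7, 11.5 and 15.3 CPM against 23.1, 23.2 and 14.3 CPM, and here the third OIR-Norm retina lay among the OIR-CIH retinas. Its log2 fold change was -0.61 (SE 0.17), with an edgeR adjusted p of 0.208 and a DESeq2 adjusted p of 0.0243. Without the third OIR-Norm retina both were called by edgeR, Col4a5 at -0.50 with an adjusted p of 0.0433 and Col4a6 at -0.81 with an adjusted p of 0.0142, in a fit that called 0.414% of all genes lower.

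**Figure D3:**
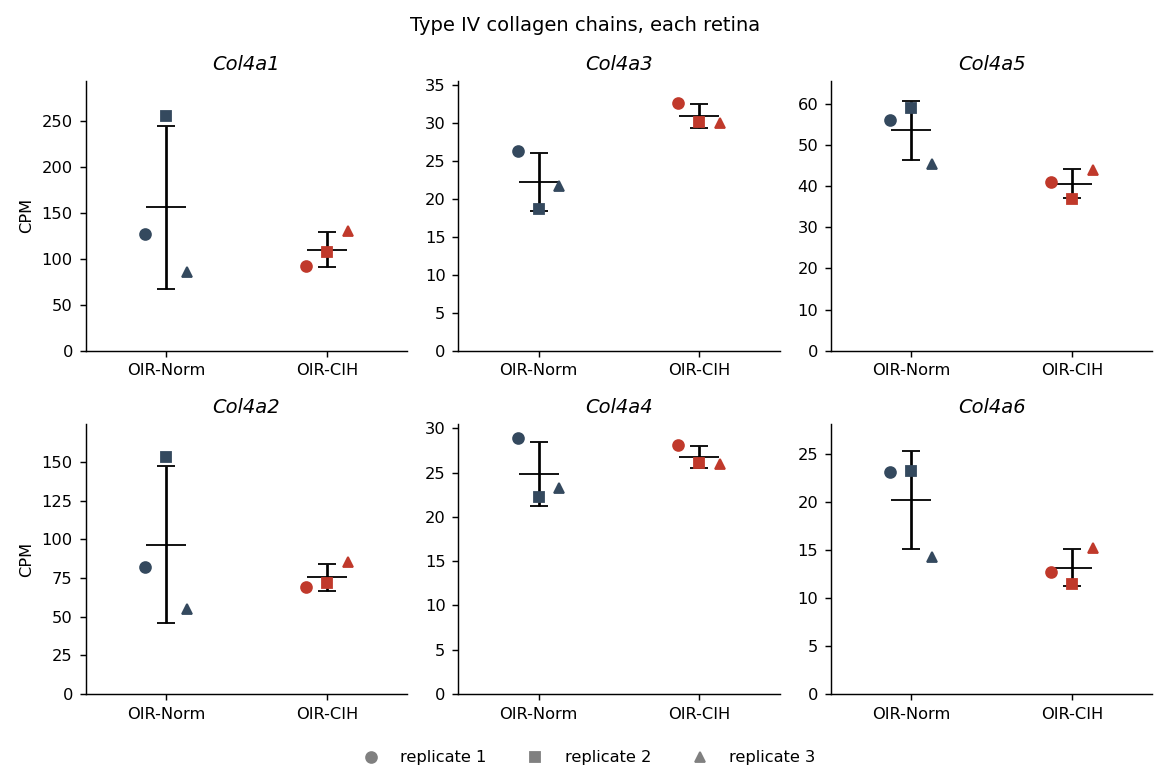
CPM (y axis, from 0) of the 6 type IV collagen genes in each retina of OIR-Norm and OIR-CIH (x axis), with each head-to-head pair in 1 column; symbols are libraries, the long horizontal line is the mean and bars are 1 SD (n = 3). In Col4a1 and Col4a2 the second OIR-Norm retina stands high, at 255 and 153 CPM, while Col4a3 lies higher and Col4a5 lower in every OIR-CIH retina.

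Among the 11 fibrillar collagens 0 were called in either direction by edgeR, 4 lay above 0 and 7 below. Col2a1, the main fibril of vitreous, was by far the most abundant of them, at 203, 206 and 200 CPM in OIR-CIH and at 200, 255 and 186 CPM in OIR-Norm. The OIR-CIH retinas lay inside the range of the OIR-Norm retinas. The log2 fold change of Col2a1 was -0.07 (SE 0.10), with an edgeR adjusted p of 0.804. Col11a1, which nucleates type II fibrils, was at 19.4, 19.7 and 22.8 CPM against 23.0, 34.4 and 23.9 CPM, and was the 1 fibrillar gene whose groups did not overlap. Its log2 fold change was -0.39 (SE 0.14), with an edgeR adjusted p of 0.296. The second chain gene of that type, Col11a2, had a log2 fold change of 0.16 (SE 0.16) and an edgeR adjusted p of 0.712.

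Type I collagen, the main fibril of sclera and scar, was low in these retinas. Col1a2 was at 9.10, 9.22 and 13.9 CPM in OIR-CIH and at 17.1, 17.8 and 13.7 CPM in OIR-Norm. The OIR-CIH 3 and OIR-Norm 3 values met in the middle, and the others were apart. Its log2 fold change was -0.57 (SE 0.16) with an edgeR adjusted p of 0.213. DESeq2 called Col1a2 lower (-0.58, adjusted p 0.0365), as did edgeR without the third OIR-CIH retina (-0.82, adjusted p 0.0458, in a fit that called 0.183% of all genes lower). Col1a1 was lower still in level, at 2.08, 1.91 and 2.14 CPM against 2.86, 4.70 and 1.57 CPM, with a log2 fold change of -0.55 (SE 0.32) and an edgeR adjusted p of 0.485. Per length Col1a2 stood at 1.08 CPM per kb and Col1a1 at 0.387.

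Col3a1, the fibril of distensible vessel walls, was at 2.43, 1.73 and 2.43 CPM in OIR-CIH and at 3.47, 8.31 and 1.76 CPM in OIR-Norm. The highest OIR-Norm retina held 4.73 times the lowest, against 1.40 times in OIR-CIH. Its log2 fold change was -1.01 (SE 0.44) with an edgeR adjusted p of 0.353, and it was -0.24 without the second OIR-Norm retina. Its neighbour on chromosome 1, Col5a2, went from -0.62 (SE 0.30, edgeR adjusted p 0.395) to -0.21 without that retina. The other type V chain genes, which govern fibril width, had log2 fold changes of -0.29 for Col5a1 and 0.02 for Col5a3, with edgeR adjusted p of 0.359 and 0.944. The remaining fibrillar genes Col24a1 (0.06) and Col27a1 (0.13) had edgeR adjusted p of 0.948 and 0.731.

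The second OIR-Norm retina was the highest of all 6 for 22 of the 44 collagen genes, against 21% of all genes tested. These were 9 of 11 fibrillar and 4 of 6 basement membrane genes, but 0 of 3 short-chain genes. Summed basement membrane collagen was 276, 284 and 330 CPM in OIR-CIH and 343, 532 and 245 CPM in OIR-Norm. Summed fibrillar collagen was 387, 396 and 383 CPM against 371, 495 and 370 CPM. Summed short-chain collagen ran the other way, with 124, 84.9 and 87.5 CPM against 70.8, 51.1 and 51.7 CPM, and was higher in each OIR-CIH retina. In 29 of 44 collagen genes the spread, as the highest over the lowest library, was wider in OIR-Norm than in OIR-CIH, against 52.6% of all genes. Without the second OIR-Norm retina, 25 of 44 collagen genes lay above 0 with a median of 0.04, and the median of the basement membrane class was 0.04 and that of the fibrillar class -0.11.

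Markers of vessel cells and of lens were high in the same retina. It was the highest library for 8 of 9 endothelial markers and for 6 of 6 pericyte markers, with 0 called in either list by edgeR or DESeq2 and an unadjusted edgeR p under 0.05 in 0 and 1 of them. Without Kdr, the most abundant and most even of the endothelial markers, the other 8 summed to 41.6, 48.2 and 63.6 CPM in OIR-CIH and to 60.8, 99.9 and 36.5 CPM in OIR-Norm, and all 9 to between 212 and 243 CPM and between 209 and 275 CPM. Summed pericyte markers ranged from 81.8 to 129 and from 93.2 to 218 CPM. Smooth muscle markers, 4 of 5 highest there and 1 (Myh11) called lower by DESeq2, summed to between 9.12 and 13.1 CPM in OIR-CIH and between 7.13 and 26.3 CPM in OIR-Norm. The 6 of 7 lens markers tested summed to between 12.9 and 64.4 CPM in OIR-CIH and between 19.1 and 352 CPM in OIR-Norm, with the second OIR-Norm retina the highest for all 6. Blood markers summed to between 49.5 and 66.6 CPM and between 48.4 and 103 CPM. Markers of fibroblasts and sclera, 2 of 8 highest there, summed to between 36.9 and 57.3 CPM and between 50.5 and 75.9 CPM, with 3 of 8 above 0, 5 below and 0 called by edgeR. Most of that sum came from Fmod, at means of 24.0 and 36.0 CPM (-0.57), and Ogn, at 9.71 and 15.0 CPM (-0.61), which was lower in each OIR-CIH retina and was called by DESeq2 with an adjusted p of 0.0220. Dcn and Lum were near 0, at means of 0.483 and 0.654 CPM and of 0.0669 and 0.142 CPM, and Mfap5 was higher in each OIR-CIH retina, at means of 1.47 and 0.975 CPM (0.58). The part of these cells in the collagen values was not tested.

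**Figure D4:**
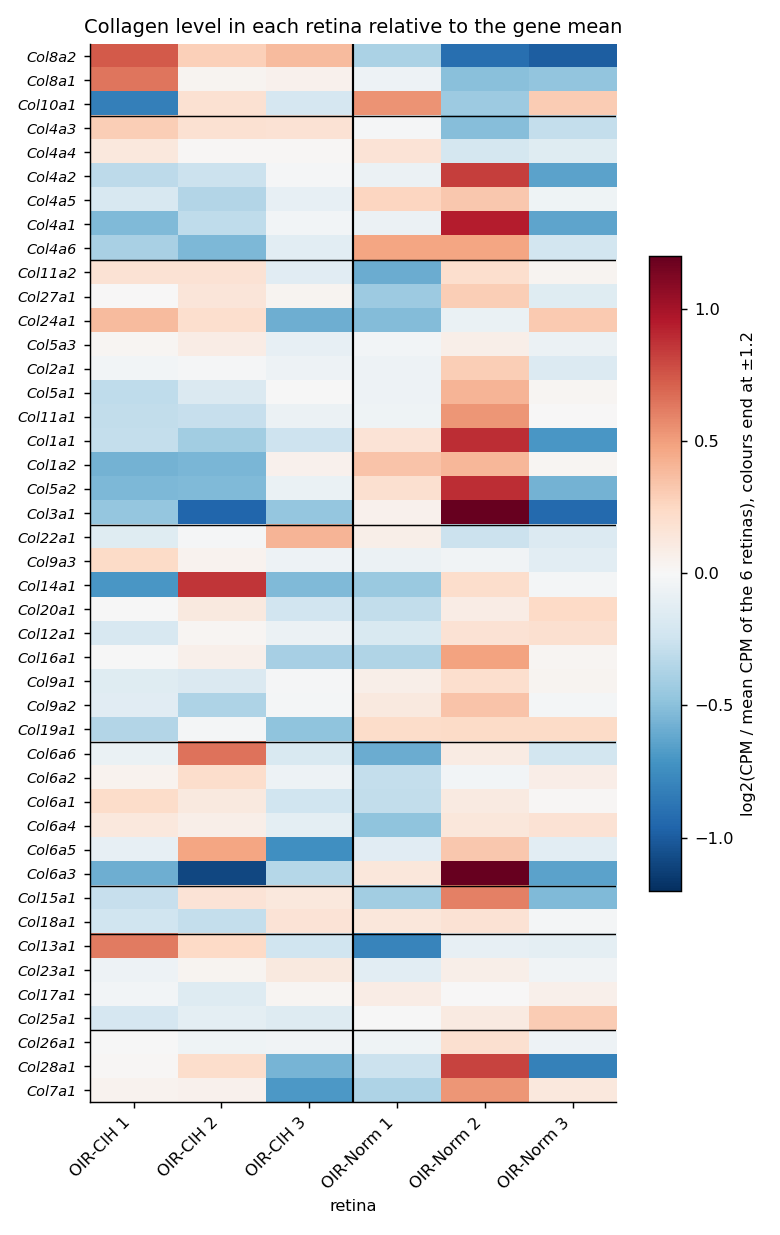
Level of each collagen gene (y axis, by class) in each of the 6 retinas (x axis), as log2 of CPM over the mean of the 6 retinas; red is above the mean and blue below, and colours end at 1.2 in either direction. The column of the second OIR-Norm retina is the reddest for most fibrillar and type IV genes, while Col8a2 and Col8a1 are above their mean in each OIR-CIH retina, Col8a1 only faintly in OIR-CIH 2 and 3, and below it in each OIR-Norm retina.

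**Figure D5:**
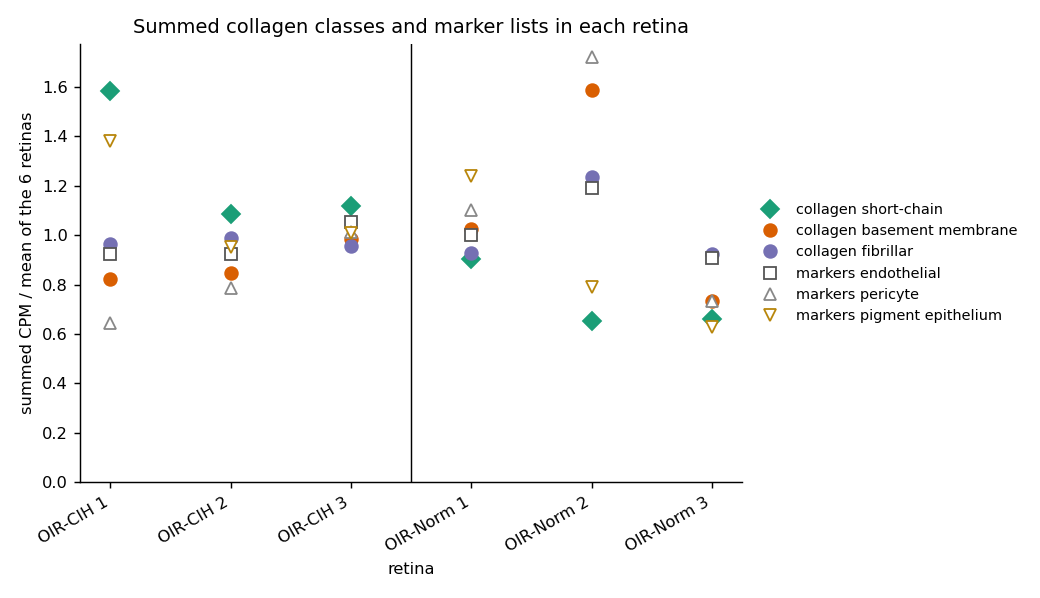
Summed CPM of 3 collagen classes (filled) and 3 marker lists (open) in each retina (x axis), divided by the mean of the 6 retinas (y axis, from 0). Basement membrane collagen and pericyte markers stand highest in the second OIR-Norm retina, and short-chain collagen is higher in every OIR-CIH retina than in any OIR-Norm retina.

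FACIT collagens were the largest class, with 24.9% of collagen CPM in OIR-CIH and 26.2% in OIR-Norm, and 0 of 9 were called. Col9a1 was at 288, 281 and 313 CPM in OIR-CIH and at 333, 365 and 323 CPM in OIR-Norm. All OIR-CIH retinas lay below all OIR-Norm retinas, by a small margin, with a log2 fold change of -0.21 (SE 0.08) and an edgeR adjusted p of 0.301. Col9a2, a second chain of collagen IX, was at 58.7, 49.75 and 63.2 CPM against 69.8, 81.8 and 63.3 CPM. The groups of Col9a2 were apart by less than 1 CPM, with a log2 fold change of -0.32 (SE 0.11) and an edgeR adjusted p of 0.273. The third chain gene, Col9a3, lay at 0.16 (SE 0.08), with overlapping groups and an edgeR adjusted p of 0.449. Col19a1, which lies beside Col9a1 on chromosome 1, was at 1.77, 2.22 and 1.61 CPM against 2.63, 2.63 and 2.64 CPM, with a log2 fold change of -0.51 (SE 0.20) and an edgeR adjusted p of 0.319. The other FACIT genes, Col12a1, Col14a1, Col16a1, Col20a1 and Col22a1, had log2 fold changes between -0.20 and 0.24.

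Of the 6 beaded filament genes, which encode collagen VI, 0 were called. Col6a1 was at 143, 133 and 104 CPM in OIR-CIH and at 100.3, 132 and 124 CPM in OIR-Norm, so that the groups overlapped, with a log2 fold change of 0.10 (SE 0.12) and an edgeR adjusted p of 0.774. Its chromosome 10 neighbour Col6a2 lay at 0.14 with an edgeR adjusted p of 0.622. Col6a3, which supplies a long chain of the usual trimer, was scarce, at 0.981, 0.693 and 1.16 CPM against 1.62, 3.44 and 0.942 CPM. Its log2 fold change was -1.03 (SE 0.43) with an edgeR adjusted p of 0.339, and the second OIR-Norm retina was again the highest. Per length, Col6a1 stood at 28.0 CPM per kb and Col6a3 at 0.123. Col6a4, Col6a5 and Col6a6 lay between -0.11 and 0.38.

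Col18a1, the multiplexin of basement membranes that releases endostatin, was at 197, 191 and 261 CPM in OIR-CIH and at 256, 263 and 229 CPM in OIR-Norm. The third OIR-CIH retina lay among the OIR-Norm retinas, and the log2 fold change was -0.20 (SE 0.11) with an edgeR adjusted p of 0.463. Col15a1, the other multiplexin, lay at 0.06. Among the transmembrane collagens, Col23a1 was at 184, 196 and 207 CPM against 176, 201 and 186 CPM, with a log2 fold change of 0.06 (SE 0.08) and an edgeR adjusted p of 0.778. Col25a1, a neuronal transmembrane collagen, was at 14.4, 15.4 and 15.0 CPM against 16.5, 17.9 and 20.5 CPM. The OIR-CIH retinas of Col25a1 were all below those of OIR-Norm, with a log2 fold change of -0.30 (SE 0.10) and an edgeR adjusted p of 0.284. Col13a1 (0.52, SE 0.26) and Col17a1 (-0.10, SE 0.10) had edgeR adjusted p of 0.415 and 0.706. Of the other collagens, Col7a1 of anchoring fibrils lay at -0.30 (SE 0.21) with an edgeR adjusted p of 0.570, and Col26a1 and Col28a1 lay at -0.06 and -0.16.

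A list of 34 genes that hydroxylate, fold, secrete, trim or cross-link collagen chains was fully tested, and 2 fell while 0 rose, beside 0.21% of all genes called lower. Pcolce (ENSMUSG00000029718) encodes the enhancer that speeds removal of the C-terminal propeptide from fibrillar procollagens. It was at 22.5, 16.7 and 18.6 CPM in OIR-CIH and at 43.6, 41.7 and 40.9 CPM in OIR-Norm, so that the highest OIR-CIH retina was far below the lowest OIR-Norm retina. The log2 fold change of Pcolce was -1.13 (SE 0.10) with an edgeR adjusted p of 0.000273, and it was called under all 13 alternative settings. Loxl4 (ENSMUSG00000025185), a lysyl oxidase that cross-links collagen, was at 12.1, 13.8 and 12.5 CPM against 18.9, 20.5 and 17.2 CPM. These groups did not overlap. Its log2 fold change was -0.56 (SE 0.10) with an edgeR adjusted p of 0.0451, close to the threshold, and it was called under 5 of 13 alternatives. It was lost with limma-voom, edgeR's legacy test and the replicate block, as well as without 5 of the 6 libraries; the first 3 of these called 0.185%, 0.215% and 0.195% of all genes lower.

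Next in the list by p were Bmp1, the proteinase that Pcolce enhances, with 41.5, 41.5 and 37.6 CPM in OIR-CIH and 46.1, 58.5 and 49.2 CPM in OIR-Norm, and Ppib, a prolyl isomerase of the endoplasmic reticulum, with 56.9, 55.9 and 51.6 CPM against 44.5, 47.0 and 46.0 CPM. Groups were apart in both, lower for Bmp1 (-0.35, edgeR adjusted p 0.196) and higher for Ppib (0.26, edgeR adjusted p 0.222). Loxl1 lay at -0.26 with an edgeR adjusted p of 0.390. The collagen chaperone Serpinh1 (-0.11) and the prolyl hydroxylase P4ha1 (0.13) had edgeR adjusted p of 0.748 and 0.458. Over the list 14 genes lay above 0 and 20 below, with a median of -0.03.

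Of 12 collagen receptor genes, 11 were tested (Gp6, of platelets, had under 10 counts), 0 were called by edgeR, 3 lay above 0 and 8 below, and the median was -0.21. Ddr2, a receptor tyrosine kinase for fibrillar collagens, was at 6.20, 6.80 and 8.71 CPM in OIR-CIH and at 12.6, 16.2 and 8.48 CPM in OIR-Norm. As for Col4a6 and Col1a2, the third OIR-Norm retina lay within the range of OIR-CIH. The log2 fold change of Ddr2 was -0.76 (SE 0.21), with an edgeR adjusted p of 0.192 and a DESeq2 adjusted p of 0.0144. Ddr1, its relative, was abundant at means of 293 and 279 CPM and lay at 0.07. Integrin β1 (Itgb1, -0.29) and its type IV collagen partner α1 (Itga1, -0.59) had edgeR adjusted p of 0.301 and 0.526, and Itga1 moved to 0.05 without the second OIR-Norm retina. Gfap, the filament of astrocytes and reactive glia, fell (-1.15, edgeR adjusted p 0.000188), and its part in these values was not tested.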

How the data were processed

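Bulk RNA of 6 retinas (3 OIR-CIH, 3 OIR-Norm) was sequenced from 250 ng of total RNA with a stranded poly(A) kit. Reads were aligned by the authors with STAR 2.7.9a, who deposited raw counts per gene, without normalization. Their methods name Ensembl 105 and the submitters' processing notes name GRCm38, and the strand that was counted is not given in the sources used here. Total counts of 26289905 to 38010151 per library leave genes with few counts imprecise.

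As in the study, genes with fewer than 10 counts over all libraries were removed, which left 20021 of 32285. Counts were scaled by TMM and tested with edgeR 4.0.16 (quasi-likelihood, group only) in R 4.3.3, which was tested on simulated data, over the whole table. Standard errors are the absolute log2 fold change over the square root of F. Exon lengths came from GENCODE M21 by gene identifier. Symbols came by identifier from a reference list of gene names, with GENCODE M21 names where it had none, and covered 32235 of 32285 genes. Promoters came from RefSeq GRCm38.p6 and matched 35 of 44 collagen genes.

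The members, lists and tests were chosen with earlier results of these data known. Named genes were all short-chain, basement membrane and fibrillar collagens, the called, most abundant and lowest-p member of each other class, and the called and up to 3 further lowest-p genes of the synthesis and receptor lists, and from each marker list the called and up to 3 first listed genes. Others (such as Col19a1, Col9a3, Col13a1, Slc16a8, Rdh5, Pmel, Fmod, Mfap5, Serpinh1, P4ha1 and Ddr1) were chosen after their values were seen.

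Alternatives were median-of-ratios scaling, DESeq2 1.42.0, limma-voom (limma 3.58.1), edgeR's legacy test, every gene with at least 1 count, filterByExpr, a replicate block, a call without a fold minimum and the removal of single libraries. DESeq2 counts in marker lists and the endothelial sum without Kdr were added after the data were seen. Every pair of replicates differed by more than sampling noise.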

Additional observations from a re-analysis of the deposited data

How the results depend on the processing

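Over the 37 genes named by the rule above, 464 gene and setting combinations kept their side of the threshold, 451 of them with the same sign. Another 9 gained a call and 8 (all Loxl4) lost one. The sign changed in 13 combinations of 9 uncalled genes (Col4a1, Col4a2, Col2a1, Col5a3, Col11a2, Col24a1, Col27a1, Col6a1 and Itga1), each with a single library left out. Among the collagen genes outside this set, Col14a1, Col15a1, Col16a1, Col20a1, Col6a4, Col6a5, Col26a1 and Col28a1 also changed sign without single libraries. The number of collagen genes called higher was 1 and became 2 with the replicate block (Col8a1 and Col8a2), and ranged from 1 to 2 when single libraries were left out (Col4a3 was added without the first OIR-Norm retina). The number called lower was 0 and became 2 with DESeq2, and ranged from 0 to 2 without single libraries (Col1a2 without the third OIR-CIH retina, Col4a5 and Col4a6 without the third OIR-Norm retina). Synthesis genes called lower went from 2 to 1 (Pcolce) with limma-voom, edgeR's legacy test and the replicate block, and ranged from 1 to 2 without single libraries. Receptor genes called lower went from 0 to 1 (Ddr2) with DESeq2, and ranged from 0 to 1 without single libraries, Ddr2 being called without the third OIR-Norm retina. The cause was not tested.

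The basement membrane median ranged from -0.57 without the third to 0.0433 without the second OIR-Norm retina. Medians of the other classes ranged from 0.37 (without OIR-CIH 1) to 0.75 for short-chain, -0.38 to -0.11 for fibrillar, -0.23 to -0.03 (without OIR-Norm 2) for FACIT, -0.08 (without OIR-Norm 1) to 0.20 for beaded filament, -0.21 to 0.17 (without OIR-Norm 2) for multiplexin and -0.07 to 0.0026 for transmembrane. The median of the unclassed collagens (3 genes) was -0.0547 with limma-voom and ranged from -0.34 to 0.0237 without single libraries. Over all genes 21 were called higher and 42 lower, with DESeq2 34 and 101, and without single libraries 7 (without OIR-CIH 1) to 31 (without OIR-Norm 1) and 22 (without OIR-CIH 1) to 81 (without OIR-Norm 3). Deviations of same-numbered retinas had correlations of 0.162, 0.143 and -0.238 over 14800 genes, so the numbers were not taken as pairs, and the replicate block called 29 genes higher and 39 lower. Groups of 3 limit what can be detected, and genes near 1 CPM, such as Col6a3 and Col10a1, are imprecise.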
